A study of Mus musculus with 12 samples.

Results

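Kinesins are motor proteins that use ATP to walk along microtubules or to take them apart. Most mouse genes of the superfamily carry symbols that begin with Kif. The kinesin genes described here were the protein-coding genes of the deposited tables whose symbol was Kif or Kifc followed by a number and whose raw counts summed to at least 20 over the 12 libraries. Of 29030 genes in either table, 41 matched the symbol and 40 met the count minimum. Kif28, with 9 counts, fell below it. The genes with the fewest counts among the 40 were Kif19b with 104, Kif6 with 116, Kif19a with 122 and Kif27 with 140. The 40 genes were divided by their known role into 13 mitotic kinesins, 15 transport kinesins and 12 other kinesins, the last being regulators of microtubule ends, of cilia or of signalling.

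RNA came from primary cardiac fibroblasts, the matrix-forming cells of the heart, of C57BL/6 mice, grown in DMEM with fetal bovine serum. All 4 groups shared this strain and medium: ethanol vehicle for 4 h, 6 µM MCB-613-10-1 for 4 h, ethanol vehicle for 24 h and 6 µM MCB-613-10-1 for 24 h, with 3 libraries in each. MCB-613-10-1 is a derivative of MCB-613, a small molecule that stimulates steroid receptor coactivators, and the series was designed around its action against fibrosis. The labels name neither the age or sex of the mice nor whether the replicates were separate cultures or animals, so p-values measure only the spread between these libraries, which may be technical.

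In a dividing cell, mitotic kinesins push the spindle poles apart, move and align chromosomes, trim microtubule ends and build the midzone at which the cell is cut into daughters. Their RNA is known to peak in the G2 and M phases of the cell cycle. Transport kinesins carry vesicles, mitochondria, endosomes, messenger RNA and ciliary parts in cells whether or not they divide, and several of them are best known from neurons. Cardiac fibroblasts divide in serum-grown culture and after injury of the heart.

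Libraries held 25016754 to 34877090 counts. The first vehicle library at 4 h stood apart from the other libraries of its group: across genes its log2 CPM (the count scaled to library size, on a log2 axis) correlated with theirs at r = 0.988 and 0.989, where theirs correlated at 0.996. Of 10 fibroblast markers, 1 fell at 4 h and 9 fell at 24 h, where 3.71% and 38% of all genes tested were called lower, and their summed level went from between 16255 and 20095 CPM in 24 h vehicle to between 6634 and 6986 CPM in 24 h treated libraries. Of the 8 cardiomyocyte markers, Tnnt2 lay at 6.5 to 17.5 CPM as group means, and the defining myosins Myh6 and Myh7 were at or near 0 (at most 0.0659 CPM as a group mean). The summed level of 8 macrophage and leukocyte markers was 94.8 to 104 CPM in 4 h vehicle, 67.2 to 88.5 in 4 h treated, 343 to 406 in 24 h vehicle and 146 to 168 in 24 h treated libraries. Endothelial markers summed to between 43.3 and 59 CPM over all libraries, and smooth muscle and pericyte markers to between 61.1 and 109.7 CPM apart from 19 to 20.7 CPM in 24 h treated libraries. Whether the 24 h libraries differ from the 4 h libraries in more than time is not known, because the 24 h table carries an unexplained prefix on its group names.

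The promoters of the kinesin genes are shown first because the lists differed in their letters. Promoter windows of RefSeq (GRCm38.p6, 250 bases before to 50 bases after a transcription start) were at hand for 31 of the 40 genes, namely 12 mitotic, 10 transport and 9 other kinesins, and the 35 windows were read on the gene's strand. Without a window were Kif20a, Kif5a, Kif5b, Kif13b, Kifc2, Kifc3, Kif19a, Kif19b and Kif21b. The motifs searched, on both strands, began with TTTGAA, the usual form of the cell cycle genes homology region (CHR), through which the MuvB complexes bind. The variant form of the CHR that was also counted was TTTAAA. The NF-Y factor was represented by its known site CCAAT. For the E2F factors the motifs were TTTGGCGC, TTTCCCGC and TTTCGCGC. No motif contains another, although matches can lie side by side. TTTGAA occurred in 11 of 12 mitotic windows (91.7%), in 1 of 12 transport windows (8.33%) and in 2 of 11 windows of the other kinesins (18.2%), beside 17.9% of all 32851 windows. The median share of G and C was 61.5% in mitotic, 68.2% in transport and 68.3% in other kinesin windows, against 52.7% over all windows, so the lists also differ in base composition. Of the windows within the GC range of the mitotic ones, 16.8% held this CHR form. The NF-Y motif occurred in 66.7% of mitotic, 33.3% of transport and 36.4% of other kinesin windows, beside 37.4% of all windows. A CHR and a CCAAT motif occurred together in 66.7% of mitotic windows, in 0 of 12 transport windows, in 18.2% of other kinesin windows and in 10.7% of all windows. An E2F motif occurred in 2 mitotic windows, those of Kif15 and Kif18a, and in 1.84% of all windows. Kif18a was the 1 mitotic gene with a window that held no CHR letters.

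The 100 bases before the start are given for 4 mitotic genes, for Kif26b, the gene outside the mitotic list whose CHR lay nearest its start, and for 2 abundant genes of the other lists, Kif1c and Kif3b, as a contrast. Capitals mark every CHR, CCAAT or E2F match on either strand, so that a CHR read from the opposite strand appears as TTCAAA. In the same way an NF-Y site appears as ATTGG, and an E2F site of the first kind as GCGCCAAA. A match is a description of the letters and not evidence of binding.
Kif11 (chr19:37376282-37376381, plus strand): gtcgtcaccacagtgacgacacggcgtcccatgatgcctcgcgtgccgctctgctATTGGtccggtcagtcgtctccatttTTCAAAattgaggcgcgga
Kif14 (chr1:136467748-136467847, plus strand): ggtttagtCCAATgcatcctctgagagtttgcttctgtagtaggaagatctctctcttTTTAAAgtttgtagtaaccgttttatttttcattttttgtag
Kif22 (chr7:127042421-127042520, minus strand): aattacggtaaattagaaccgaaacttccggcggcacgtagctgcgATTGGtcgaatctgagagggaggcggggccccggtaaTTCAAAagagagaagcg
Kif15 (chr9:122950981-122951080, plus strand): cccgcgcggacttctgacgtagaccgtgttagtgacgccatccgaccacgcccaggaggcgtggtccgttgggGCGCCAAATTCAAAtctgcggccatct
Kif26b (chr1:178529025-178529124, plus strand): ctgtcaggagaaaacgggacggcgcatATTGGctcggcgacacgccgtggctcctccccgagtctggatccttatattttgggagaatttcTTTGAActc
Kif1c (chr11:70700448-70700547, plus strand): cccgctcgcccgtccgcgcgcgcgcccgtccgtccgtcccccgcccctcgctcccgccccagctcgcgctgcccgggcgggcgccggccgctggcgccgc
Kif3b (chr2:153291316-153291415, plus strand): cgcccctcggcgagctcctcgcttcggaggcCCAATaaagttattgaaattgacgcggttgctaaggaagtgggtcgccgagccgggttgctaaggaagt

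In Kif11 and Kif22 the CHR began 19 and 17 bases before the start, with a CCAAT match 45 and 54 bases before it. In Kif15 the CHR followed the E2F match without a gap, and in Kif26b the CHR began 9 bases before the start with a CCAAT match at 73. The other window outside the mitotic list with both motifs was that of Kif27, a low-count gene that was not called at 4 h and not tested at 24 h, and the window of Kif24 held CCAAT matches and no CHR. Kif1c held none of the motifs, and Kif3b held a single CCAAT. Counted over the last 100 bases of each window, a span chosen after the positions were seen, a CHR lay in 83.3% of mitotic windows and in 8.28% of all windows. The single transport window with a CHR belonged to a second, internal start of Kif1a. The printed Kif14 stretch ends, like that window's bases before the start, in a run rich in T and C followed by AG, as introns do. The bases before the starts of Kif27 and Kif2c also end in AG. Whether the starts of Kif14, Kif27 and Kif2c are internal was not tested.

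**Figure D1:**
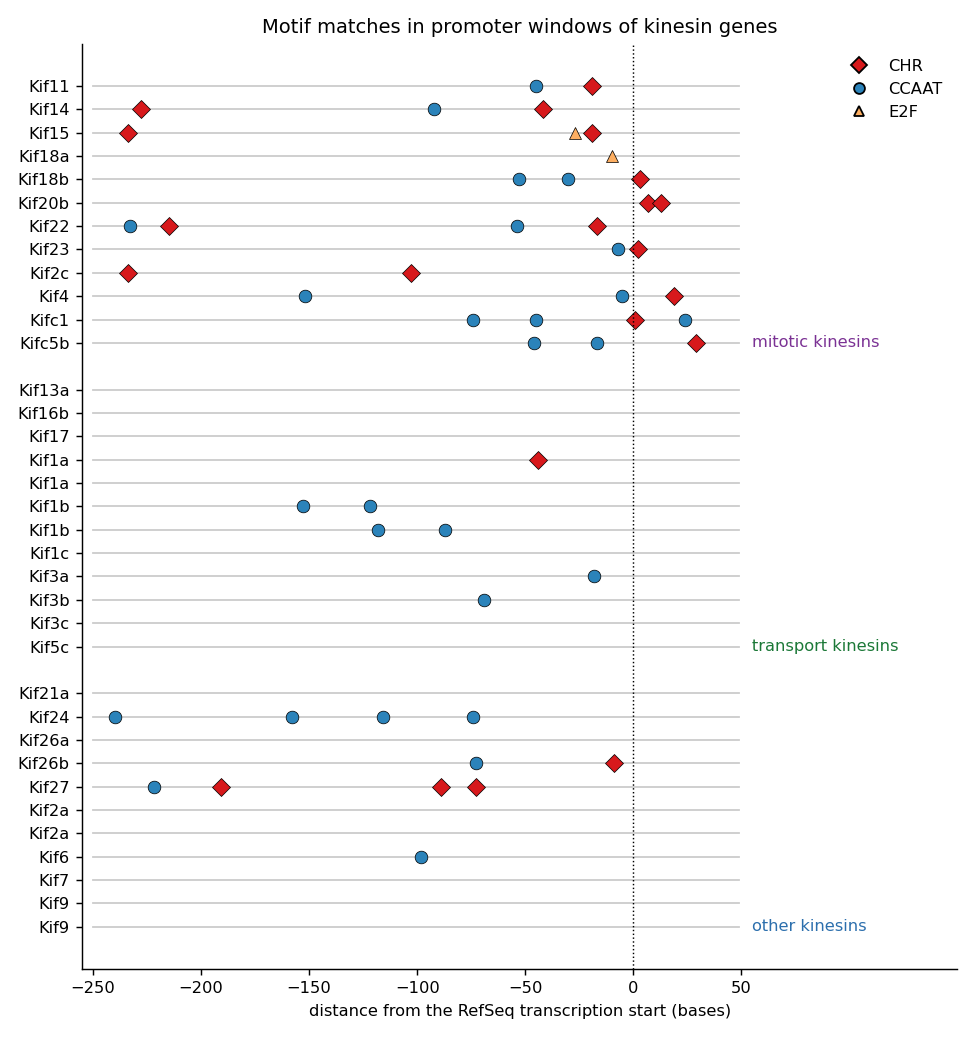
Each grey line is a RefSeq promoter window of a kinesin gene, plotted by distance in bases from the transcription start (dotted line), with diamonds for CHR, circles for CCAAT and triangles for E2F matches on either strand. A gene with 2 annotated starts has 2 lines. The CHR matches cluster near the start in the mitotic genes, where 11 of 12 windows hold one, and are rare in the transport genes.

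The comparison of treated with vehicle cells at 24 h asked which kinesins changed with a day of MCB-613-10-1. All 13 mitotic kinesins fell, by 5.4-fold (Kifc5b) to 27.6-fold (Kif14), while the transport kinesins divided into 8 that rose and 3 that fell, all but Kif5a, Kif1a, Kif1b and Kifc3 by less than a 2-fold change. Of the 9 other kinesins that could be tested, 3 rose, among them the microtubule depolymerase Kif2a, and 3 fell, among them Kif26b. The role lists were drawn with earlier results of these data known, and Kif2a, which also acts at spindle poles, was listed outside the mitotic kinesins. The count of 13 of 13 therefore depends on where that list ends. Calls are at an adjusted p under 0.05 by edgeR's quasi-likelihood test with Benjamini-Hochberg adjustment over all genes. The background was high: 74.7% of the 15575 genes tested were called at 24 h, 38% lower and 36.7% higher, with a median log2 fold change of -0.02. For the transport kinesins, 11 of 15 called in either direction is near that background. The mitotic list had a median of -3.54 on the log2 scale, the transport list 0.24 and the other kinesins -0.18, a value that turned to 0.18 without the third vehicle library and was -0.65 without the first. In 13 of 13 mitotic kinesins every treated library lay below every vehicle library, beside 6086 of the 15575 genes tested. Counting both directions, the groups of 77.4% of all genes did not overlap. Scaling by library totals alone moved the median of all genes at 24 h to -0.21 and that of the transport kinesins to 0.04, so small rises among transport kinesins hold only relative to the bulk of genes.

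**Figure D2:**
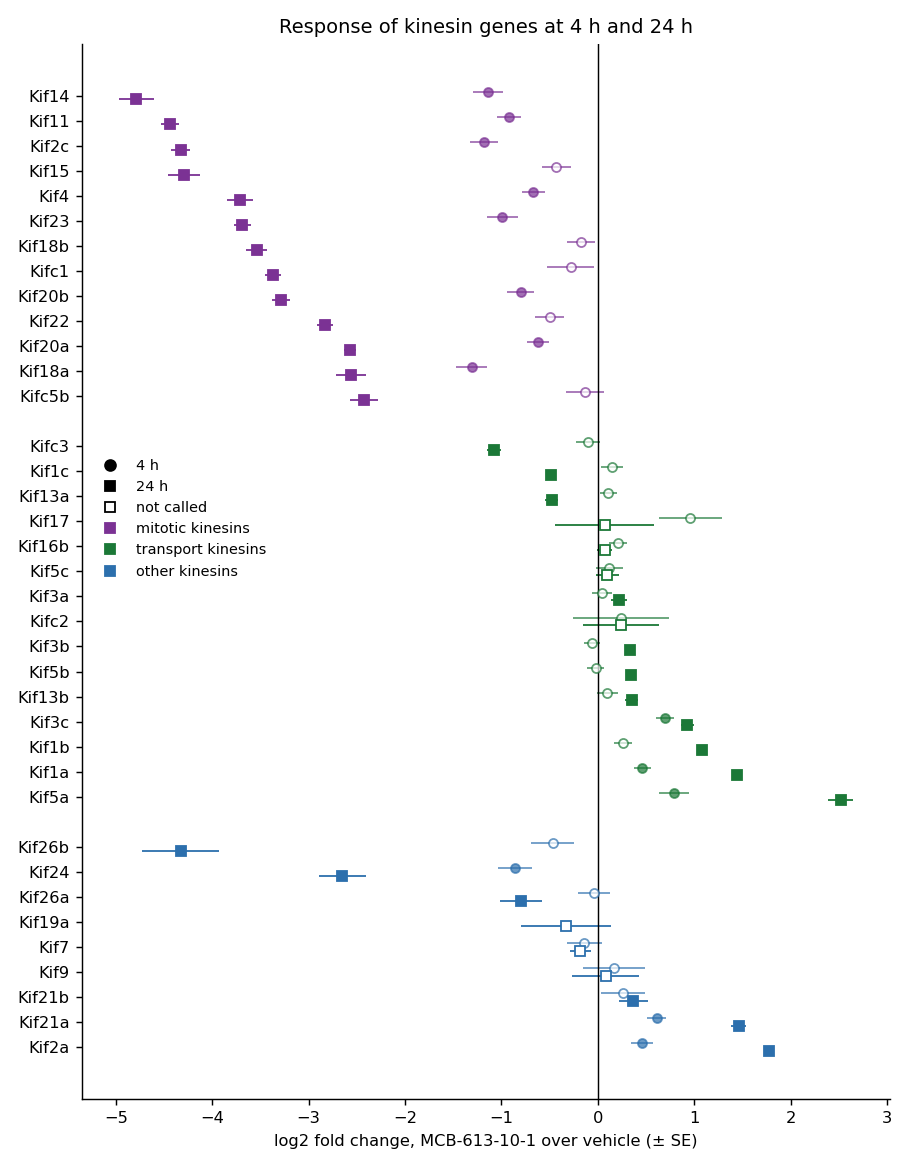
Log2 fold change of treated over vehicle (x axis, ± SE derived from the F statistic, 3 libraries per group) for the kinesin genes tested at 24 h, with circles for 4 h and squares for 24 h. Filled symbols were called at an adjusted p under 0.05. All mitotic genes lie between -4.79 and -2.43 at 24 h, and the transport genes lie between -1.08 and 2.52.

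Among the spindle motors, Kif11 (Eg5, ENSMUSG00000012443, GRCm39 chromosome 19, 37364851 to 37410307) slides antiparallel microtubules apart and keeps the spindle bipolar. Kif11 read 36.3, 27.8 and 32.2 CPM in 4 h vehicle, 19.2, 15.1 and 16.6 in 4 h treated, 73.9, 69.8 and 69 in 24 h vehicle and 3.59, 3.48 and 2.7 CPM in 24 h treated libraries. At both times the groups did not overlap, and the 24 h vehicle libraries were the highest of all. The log2 fold change of Kif11 was -0.92 ± 0.128 (SE) at 4 h (edgeR adjusted p = 0.00126) and -4.44 ± 0.0919 at 24 h (edgeR adjusted p = 2.17e-18). Kif15, the kinesin-12 motor that can stand in for Kif11, read 9.5, 7.57 and 10.8 CPM in 4 h vehicle and 7.12, 6.77 and 6.72 in 4 h treated libraries. At 24 h Kif15 read 19.5, 19.4 and 22 CPM in vehicle and 1.44, 0.928 and 0.753 CPM in treated libraries. Kif15 was lower in every treated library at both times, yet was called at 24 h only (log2 fold change -4.29 ± 0.166, edgeR adjusted p = 1.53e-14), with -0.43 ± 0.151 at 4 h (edgeR adjusted p = 0.111). Kifc1, the minus-end-directed motor that bundles spindle microtubules and focuses poles, read 12.5, 20.8 and 27.8 CPM in 4 h vehicle and 16.5, 16.1 and 17.6 in 4 h treated libraries. Here the 4 h groups overlapped, the log2 fold change was -0.28 ± 0.245 (edgeR adjusted p = 0.539), and the 3 vehicle libraries spanned more than a 2-fold range. Without the first vehicle library, the lowest of them, the 4 h change of Kifc1 was -0.54 (edgeR adjusted p = 0.0128), and without the third, the highest, it was 0.01. At 24 h Kifc1 read 58.5, 58.2 and 58.8 CPM in vehicle and 6.18, 5.77 and 5.09 CPM in treated libraries, a log2 fold change of -3.37 ± 0.0814 (edgeR adjusted p = 1.93e-17). Kifc5b, a gene close in sequence to Kifc1, changed by -2.43 at 24 h, and how reads were divided between this pair is uncertain.

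Among the motors of the midzone and cytokinesis, Kif14 (ENSMUSG00000041498, GRCm39 chromosome 1, 136394081 to 136459249), which is needed for the final cut between daughter cells, had the largest fall of all kinesins. Kif14 read 10.2, 8.9 and 10.9 CPM in 4 h vehicle, 5.27, 4.04 and 4.33 in 4 h treated, 26.2, 21.7 and 24.7 in 24 h vehicle and 0.865, 1.19 and 0.487 CPM in 24 h treated libraries. The treated libraries at 24 h held 3.62% of the vehicle level, with a log2 fold change of -4.79 ± 0.18 (edgeR adjusted p = 1.71e-13), after -1.14 ± 0.154 at 4 h (edgeR adjusted p = 0.00109). Kif23 (MKLP1), the motor subunit of centralspindlin, read 23.6, 20.5 and 31.3 CPM in 4 h vehicle and 13.4, 10.5 and 13.9 in 4 h treated libraries. At 24 h Kif23 read 52.5, 50.4 and 51.6 CPM in vehicle and 4.12, 4.21 and 3.59 in treated libraries. Neither time showed an overlap between the groups of Kif23, and its log2 fold change was -0.99 ± 0.164 at 4 h (edgeR adjusted p = 0.00403) and -3.69 ± 0.0871 at 24 h (edgeR adjusted p = 1.4e-17). Kif20a (MKLP2), which carries the Aurora B complex to the midzone, read 31, 26.7 and 34.2 CPM in 4 h vehicle, 21.3, 19 and 19.6 in 4 h treated, 98.3, 94.9 and 97.8 in 24 h vehicle and 17, 16.6 and 15.7 CPM in 24 h treated libraries. Its fall at 24 h, -2.57 ± 0.0612 on the log2 scale (edgeR adjusted p = 1.66e-17), was among the smallest of the list. Of the per-length level of the mitotic kinesins, Kif20a made up 15.6% ± 1.23 (SD, n = 3) in 4 h vehicle, 19.6% ± 0.199 in 24 h vehicle and 31.8% ± 1.31 in 24 h treated libraries. The Kif20a gene overlaps Cdc23 on the opposite strand, over a length that was not measured. Since the labels do not say whether the counting used strand, reads in the shared stretch may not be told apart. Kif20b, a further cytokinesis motor, changed by -0.80 at 4 h (edgeR adjusted p = 0.00492) and by -3.29 at 24 h (edgeR adjusted p = 1.43e-16).

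The motors that act on chromosomes and microtubule ends followed the same direction at 24 h. Kif2c (MCAK), the depolymerase that corrects wrong attachments at kinetochores, read 17.7, 16.8 and 21.2 CPM in 4 h vehicle, 9.23, 7 and 8.31 in 4 h treated, 47.4, 46.9 and 48.3 in 24 h vehicle and 2.76, 2.32 and 2.04 CPM in 24 h treated libraries. With no overlap at either time, Kif2c changed by -1.18 ± 0.142 at 4 h (edgeR adjusted p = 0.000494) and by -4.33 ± 0.101 at 24 h (edgeR adjusted p = 1.38e-17). The chromokinesins, which push chromosome arms outward, were Kif4 with -0.67 at 4 h and -3.71 at 24 h and Kif22 with -0.50 at 4 h and -2.83 at 24 h. Kif4 was called at both times (edgeR adjusted p = 0.00605 and 5.81e-11). Kif22 was called at 24 h (edgeR adjusted p = 1.63e-16) and missed the threshold at 4 h (edgeR adjusted p = 0.0682), where the fit with the replicate number as a block gave an edgeR adjusted p of 0.0213. Kif18a, which damps chromosome movements at the metaphase plate, had the largest fall of the list at 4 h (-1.31 ± 0.161, edgeR adjusted p = 0.000546) and among the smallest at 24 h (-2.56 ± 0.157, edgeR adjusted p = 1.67e-11). Kif18b, its relative that shortens astral microtubules, was not called at 4 h and lay at the list's median at 24 h, with -0.17 ± 0.145 at 4 h (edgeR adjusted p = 0.529) and -3.54 ± 0.111 at 24 h (edgeR adjusted p = 7.59e-16). The order of the falls among mitotic kinesins thus differed between the times. The gene of Kif4 overlaps Pdzd11 and that of Kif18a overlaps Mettl15, each on the opposite strand, and in all 21 of the 40 kinesin genes overlap another gene of the tables.

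**Figure D3:**
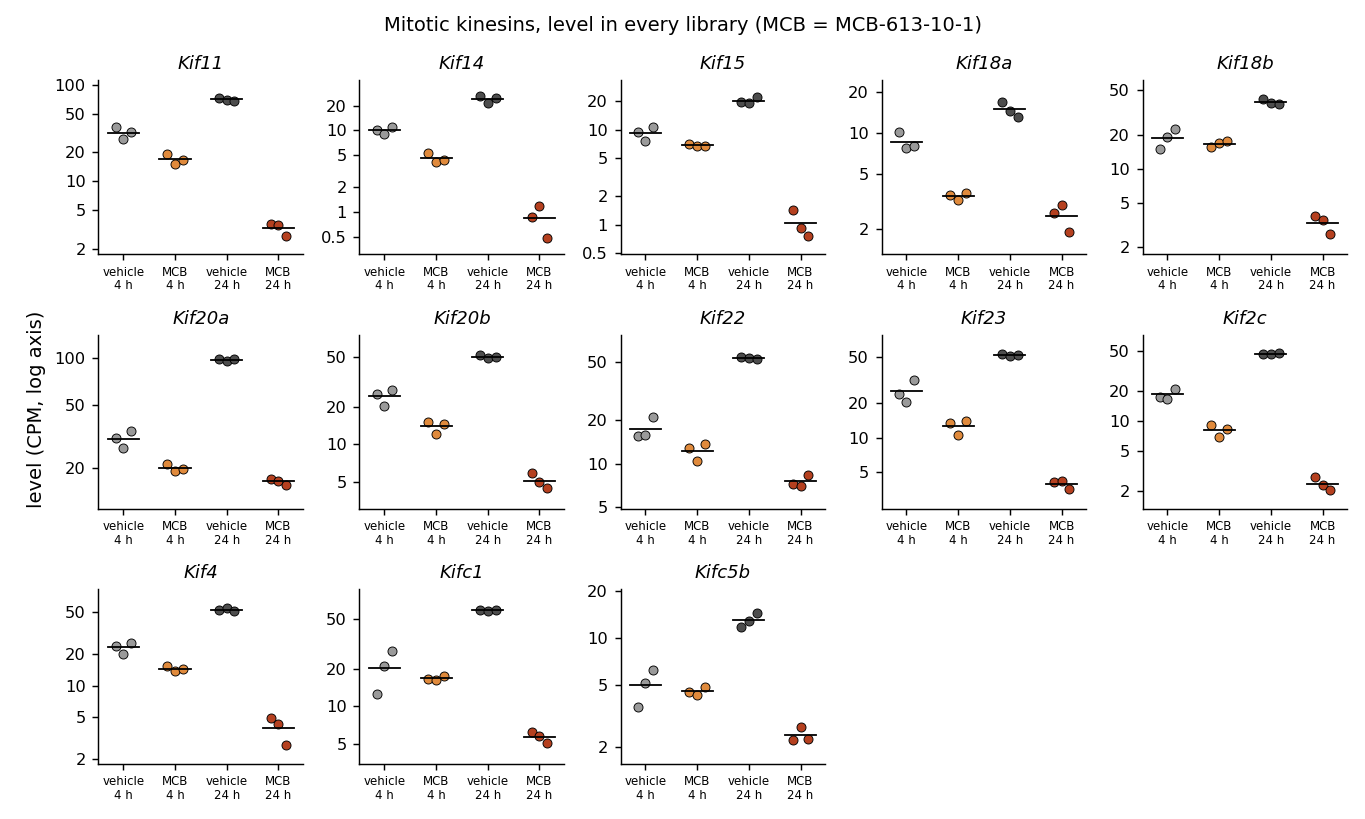
Level of each mitotic kinesin in every library, in CPM on a log axis, with a horizontal line at each group's mean of 3 libraries. In all 13 genes the 24 h vehicle libraries are the highest and the 24 h treated libraries the lowest, and the 4 h groups lie between them.

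At 4 h, 8 of 13 mitotic kinesins fell and none rose, with a median of -0.67 on the log2 scale and a range from -1.31 to -0.13. At this time 7.16% of the 15336 genes tested were called, 3.71% lower and 3.45% higher, and the median over all genes was -0.01. Every treated library lay below every vehicle library in 10 of the 13, beside 2334 of the 15336 genes tested. In either direction, the groups of 29.7% of all genes did not overlap. The 5 mitotic kinesins not called were Kif15, Kif18b, Kif22, Kifc1 and Kifc5b, at -0.50 to -0.13. The authors' deposited table called 9 of the mitotic kinesins lower at 4 h and 13 at 24 h. With the replicate number as a block, 9 mitotic kinesins were called lower at 4 h, and 1953 genes were called in all, against 1098 without the block. Without the first vehicle library, 10 mitotic kinesins were called lower at 4 h. Without the second or the third treated library 7 were, and the fall of Kif20a missed the threshold (edgeR adjusted p = 0.0515 and 0.0511).

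The change between the 4 h and the 24 h response, tested as an interaction over all 12 libraries, passed the threshold in 13 of 13 mitotic kinesins, each lower at 24 h, with a median of -3.04. Over all genes tested 53.8% passed, 27.1% lower and 26.7% higher. Kif15 had the largest difference of the list (-3.85 ± 0.244, edgeR adjusted p = 5.32e-10) and Kif18a the smallest (-1.24 ± 0.237, edgeR adjusted p = 0.000222). The baselines of the responses differed, since the vehicle level moved as well. In vehicle libraries all 13 mitotic kinesins were higher at 24 h than at 4 h, by 0.78 (Kif18a) to 1.67 (Kif20a) on the log2 scale with a median of 1.19, where 54.3% of all genes were called, 27.4% higher and 27% lower. The level left at 24 h in treated cells was below the 4 h vehicle level too: Kif11 averaged 0.436 CPM per kilobase of gene length there, against 4.31 in 4 h vehicle and 9.5 in 24 h vehicle libraries. The 8 macrophage and leukocyte markers moved in the same directions, with 8 of 8 higher in 24 h than in 4 h vehicle and 7 of 8 lower and 1 higher with treatment at 24 h, and their part in the kinesin values was not tested. In bulk RNA, fewer cycling cells and less kinesin RNA per cell cannot be told apart.

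Per length of gene, the kinesin RNA shifted from mitotic to transport motors and to Kif2a. The mitotic kinesins summed to 45.2 ± 6.48 CPM per kilobase in 4 h vehicle, 29.7 ± 1.73 in 4 h treated, 114 ± 1.6 in 24 h vehicle and 11.9 ± 0.951 in 24 h treated libraries (SD, n = 3). Their share of the summed level of all kinesins was 17.8% ± 2.17, 11.1% ± 0.805, 37.5% ± 0.749 and 4.26% ± 0.322 in the same order. In each pair of groups the ranges of the mitotic sums did not overlap. The transport kinesins summed to 174 ± 2.28, 193 ± 5.39, 166 ± 3.45 and 206 ± 1.04 CPM per kilobase. They made up 68.6% ± 1.56 of kinesin RNA in 4 h vehicle and 71.9% ± 0.888 in 4 h treated libraries. At 24 h their share was 54.6% ± 0.826 in vehicle and 73.5% ± 0.285 in treated libraries, so the 24 h vehicle share was the lowest. The other kinesins summed to 34.5 ± 4.16, 45.7 ± 0.998, 24 ± 0.714 and 62.4 ± 1.26 CPM per kilobase in the order of the groups above. Of their 24 h sums, Kif2a alone was 64.2% ± 3.32 in vehicle and 84.7% ± 0.581 in treated libraries. These shares are of a total that itself moved and carry no test.

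**Figure D4:**
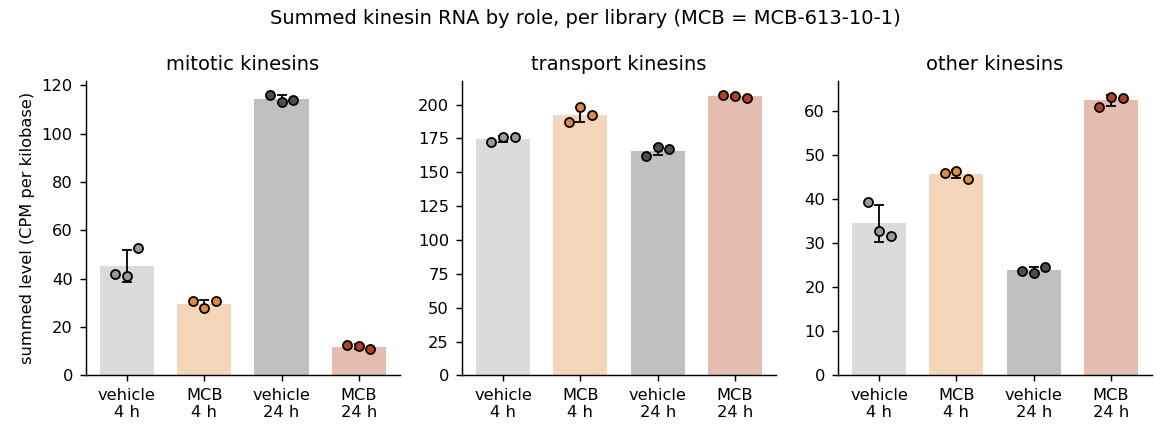
Summed level in CPM per kilobase of gene length of the 13 mitotic, 15 transport and 12 other kinesins in each library (points), with bars for the group mean of 3 libraries and error bars for the SD. The mitotic sum is 114 in 24 h vehicle and 11.9 in 24 h treated libraries, and the transport sum stays between 162 and 207 in all 12 libraries.

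Among the transport kinesins, the conventional kinesin-1 heavy chains, which carry mitochondria and vesicles, differed from each other. Kif5a (ENSMUSG00000074657, GRCm39 chromosome 10, 127061565 to 127099217), best known as the neuronal heavy chain, read 3.68, 4.92 and 4.38 CPM in 4 h vehicle, 7.84, 7.7 and 6.83 in 4 h treated, 3.9, 3.46 and 3.49 in 24 h vehicle and 23.7, 21.4 and 17.7 CPM in 24 h treated libraries. Every treated library was above every vehicle library at both times. Kif5a rose by 0.79 ± 0.157 on the log2 scale at 4 h (edgeR adjusted p = 0.0107) and by 2.52 ± 0.127 at 24 h (edgeR adjusted p = 8.36e-13), and the 4 h call was lost without the first or the second treated library (edgeR adjusted p = 0.0546 and 0.0585). Kif5b, the heavy chain found in most tissues, read 427, 376 and 359 CPM in 4 h vehicle, 403, 377 and 365 in 4 h treated, 375, 386 and 371 in 24 h vehicle and 469, 482 and 484 CPM in 24 h treated libraries. The 4 h groups of Kif5b overlapped (log2 fold change -0.02 ± 0.0893, edgeR adjusted p = 0.919), and at 24 h it rose by 0.34 ± 0.0427 (edgeR adjusted p = 7.18e-07). Kif5b had the highest mean per-length level of all kinesins over the 12 libraries, 50.9 CPM per kilobase, against 1.3 for Kif5a. Kif5c, the other heavy chain expressed mainly in neurons, was not called at either time (log2 fold changes 0.12 and 0.10).

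The kinesin-3 motors, which haul vesicles and endosomes over long distances, moved in both directions at 24 h. Kif1a (ENSMUSG00000014602, GRCm39 chromosome 1, 92943186 to 93029673), known in neurons as the motor of synaptic vesicle precursors, read 208, 220.3 and 209 CPM in 4 h vehicle, 270, 320 and 286 in 4 h treated, 123, 128 and 139 in 24 h vehicle and 358, 352 and 349.9 CPM in 24 h treated libraries. The groups of Kif1a did not overlap at either time, and the vehicle level itself was lower at 24 h (-0.71 ± 0.0712 on the log2 scale, edgeR adjusted p = 1.7e-07). Kif1a rose by 0.46 ± 0.0872 at 4 h (edgeR adjusted p = 0.00842) and by 1.44 ± 0.0499 at 24 h (edgeR adjusted p = 2.92e-15). Without the second treated library its 4 h call was lost (edgeR adjusted p = 0.0515). Kif1b, which carries mitochondria and vesicle precursors, read 263, 216 and 226 CPM in 4 h vehicle and 280.3, 283 and 283 in 4 h treated libraries. At 24 h Kif1b read 204, 205 and 203 CPM in vehicle and 417, 428 and 452 in treated libraries. Kif1b rose by 1.08 ± 0.045 at 24 h (edgeR adjusted p = 4.79e-14). At 4 h its log2 fold change was 0.26 ± 0.0901 (edgeR adjusted p = 0.102), although no treated library lay below a vehicle library, and without the first vehicle library it was 0.36 (edgeR adjusted p = 0.00266).

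Kif1c, a kinesin-3 motor of dense-core vesicles and integrins, went the other way. It read 288, 376 and 389 CPM in 4 h vehicle, 357, 412 and 402 in 4 h treated, 361, 388 and 381 in 24 h vehicle and 281, 267 and 259.7 CPM in 24 h treated libraries. Kif1c fell by 0.49 on the log2 scale at 24 h (SE 0.0473, edgeR adjusted p = 1.68e-08), and at 4 h it changed by 0.15 ± 0.115 with overlapping groups (edgeR adjusted p = 0.459). Kif1c was the second most abundant kinesin per length at 47.7 CPM per kilobase over the 12 libraries, and its share of the transport sum was 31.2% ± 0.544 in 24 h vehicle and 18% ± 0.647 in 24 h treated libraries. Kif13b, a motor of membrane and polarity proteins, read 27.8, 24 and 24.9 CPM in 4 h vehicle, 24.6, 27.1 and 30.6 in 4 h treated, 33.2, 28.6 and 33.5 in 24 h vehicle and 40.4, 41.2 and 40.7 CPM in 24 h treated libraries. Its 4 h groups overlapped, and at 24 h it rose by 0.35 ± 0.0708 (edgeR adjusted p = 0.000175), a call lost when library totals alone were used for scaling (edgeR adjusted p = 0.0569). Its close relative Kif13a fell by 0.48 at 24 h (SE 0.0685, edgeR adjusted p = 2.99e-06). Kif16b, the motor of early endosomes, was not called at 24 h (log2 fold change 0.07).

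The kinesin-2 genes encode the motor that carries material into cilia together with Kifap3, its non-motor subunit. Kif3a read 20.4, 20.4 and 19.5 CPM in 4 h vehicle, 19.9, 19.8 and 22.2 in 4 h treated, 22.8, 21.6 and 24.7 in 24 h vehicle and 28.4, 25.9 and 26.6 CPM in 24 h treated libraries. The rise of Kif3a at 24 h was small, 0.22 ± 0.0785 on the log2 scale (edgeR adjusted p = 0.0184), and was lost with DESeq2 (adjusted p = 0.0503) and with library totals (0.02, edgeR adjusted p = 0.805). It was also lost without the first vehicle (edgeR adjusted p = 0.0576), the second vehicle (0.101) or the first treated library (0.0868). Its partner Kif3b rose by 0.33 ± 0.0494 (edgeR adjusted p = 6.6e-06), and Kif3c, the alternative partner, rose by 0.70 ± 0.0948 at 4 h (edgeR adjusted p = 0.00112) and by 0.93 ± 0.0676 at 24 h (edgeR adjusted p = 2.29e-10). Kifap3, named here after its value was seen, fell by 0.64 (SE 0.08, edgeR adjusted p = 3.22e-07) at 24 h. Kif17, the homodimeric kinesin-2 motor, lay at 0.165 to 1.48 CPM in all libraries and was not called.

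Of the minus-end-directed transport motors, Kifc3, which acts at the Golgi and at cell junctions, read 28.4, 39.5 and 38.9 CPM in 4 h vehicle, 31.6, 34 and 33.9 in 4 h treated, 37.1, 41.5 and 38.7 in 24 h vehicle and 18.7, 18.4 and 18.6 CPM in 24 h treated libraries. The 4 h groups overlapped, and at 24 h Kifc3 fell by 1.08 (SE 0.0716, edgeR adjusted p = 5.6e-11), the largest fall among transport kinesins. Kifc2 lay at 0.179 to 1.24 CPM and was not called. At 4 h 3 of 15 transport kinesins were called, all higher, beside 3.45% of all genes called higher: Kif5a, Kif1a and Kif3c. The remaining 12 lay between -0.10 and 0.96 on the log2 scale, and without the second treated library only 1 was called higher. The interaction passed in 8 of 15 transport kinesins, a share near the 53.8% of all genes: Kif5a, Kif1a, Kif1b, Kif3b and Kif5b changed upward from 4 h to 24 h and Kifc3, Kif1c and Kif13a downward.

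**Figure D5:**
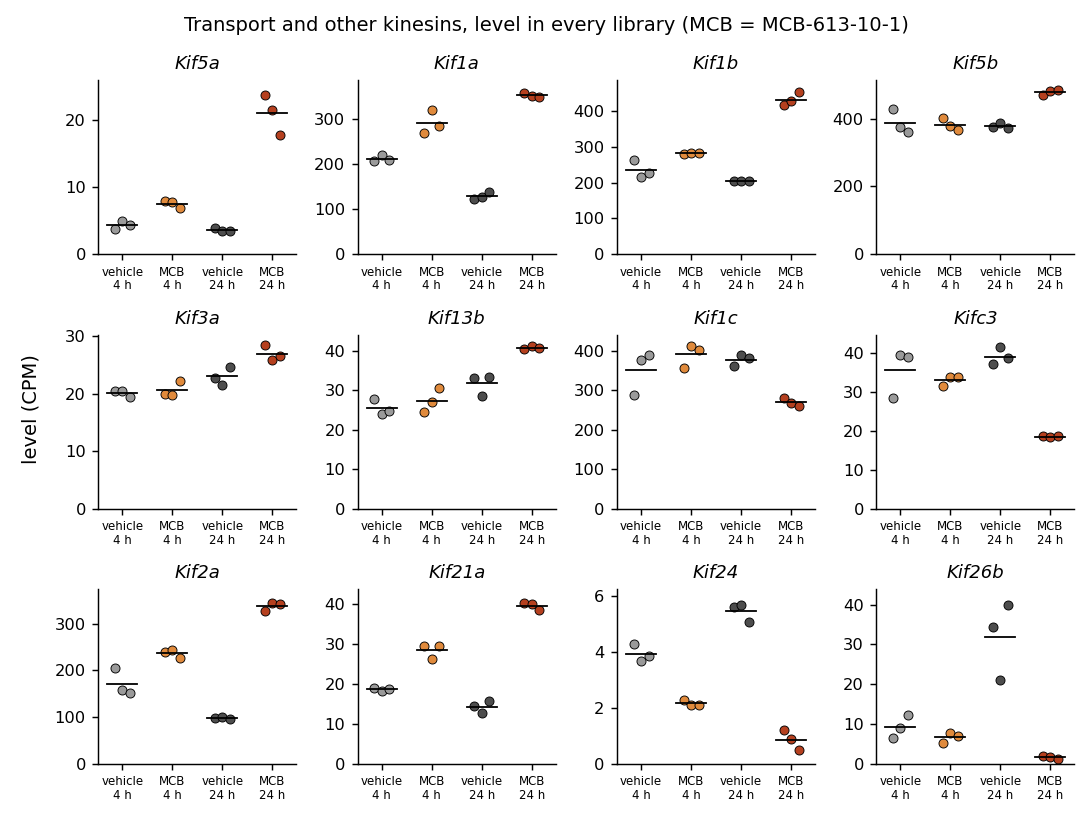
Level in CPM (linear axis from 0) of 8 transport kinesins (upper rows) and 4 other kinesins (bottom row) in every library, with a line at each group's mean of 3 libraries. Kif5a, Kif1a, Kif1b, Kif2a and Kif21a are highest in the 24 h treated libraries, while Kif1c, Kifc3, Kif24 and Kif26b are lowest there.

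Among the other kinesins, Kif2a (ENSMUSG00000021693, GRCm39 chromosome 13, 107095504 to 107158634) removes tubulin from microtubule ends, like Kif2c, and acts in neurons and at spindle poles. It read 205, 159 and 151 CPM in 4 h vehicle, 239.7, 243 and 227 in 4 h treated, 97.2, 101 and 96.6 in 24 h vehicle and 328, 344 and 343 CPM in 24 h treated libraries. Treated libraries were above vehicle libraries at both times, and the 24 h vehicle libraries were the lowest. Kif2a rose by 1.78 ± 0.0451 on the log2 scale at 24 h (edgeR adjusted p = 3.73e-17), where its close relative Kif2c fell by 4.33. The 4 h rise of 0.46 ± 0.112 (edgeR adjusted p = 0.0283) missed the threshold with library totals (edgeR adjusted p = 0.0525), with limma on FPKM (adjusted p = 0.0576) and when any library other than the first vehicle library was left out (edgeR adjusted p from 0.0877 to 0.126). Kif2a overlaps Dimt1 on the opposite strand. Kif21a, which restrains microtubule growth at the cell cortex, read 19, 18.3 and 18.8 CPM in 4 h vehicle, 29.6, 26.2 and 29.5 in 4 h treated, 14.4, 12.7 and 15.7 in 24 h vehicle and 40.3, 40.1 and 38.5 CPM in 24 h treated libraries. It rose by 0.61 ± 0.0993 at 4 h (edgeR adjusted p = 0.00377) and by 1.46 ± 0.0824 at 24 h (edgeR adjusted p = 4.7e-12), with no overlap at either time. Its relative Kif21b rose by 0.37 ± 0.152 at 24 h (edgeR adjusted p = 0.0346), a call lost with DESeq2 (adjusted p = 0.0952), library totals, limma on FPKM, no filter or all 12 libraries in the fit, and without the second or the third vehicle or the first treated library.

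Kif26b (ENSMUSG00000026494, GRCm39 chromosome 1, 178356690 to 178766765), an atypical kinesin that acts in Wnt5a signalling and in kidney development, fell about as far as the mitotic motors. It read 6.42, 9.04 and 12.2 CPM in 4 h vehicle, 5.27, 7.66 and 7.04 in 4 h treated, 34.4, 21 and 39.8 in 24 h vehicle and 2.02, 1.59 and 1.11 CPM in 24 h treated libraries. The vehicle libraries at 24 h spread widely, yet all lay above the treated ones. The log2 fold change of Kif26b was -4.33 ± 0.395 at 24 h (edgeR adjusted p = 0.000361) and -0.47 ± 0.223 at 4 h (edgeR adjusted p = 0.236), and without the first vehicle library the latter was -0.67 (edgeR adjusted p = 0.0268). Its relative Kif26a fell by 0.80 at 24 h (SE 0.216, edgeR adjusted p = 0.0026). Kif24, a kinesin that sits on centrioles and holds back cilium formation, read 4.26, 3.66 and 3.84 CPM in 4 h vehicle, 2.28, 2.11 and 2.08 in 4 h treated, 5.6, 5.67 and 5.05 in 24 h vehicle and 1.2, 0.895 and 0.487 CPM in 24 h treated libraries. Every treated library of Kif24 lay below every vehicle library, with -0.86 ± 0.175 at 4 h (edgeR adjusted p = 0.012) and -2.65 ± 0.243 at 24 h (edgeR adjusted p = 7.36e-09), and the 4 h call was lost without the second or the third treated library (edgeR adjusted p = 0.0606 and 0.0706). Kif7, the Hedgehog regulator at the ciliary tip, was not called (-0.18 at 24 h, and -0.37 with library totals, edgeR adjusted p = 0.00644). The remaining other kinesins were the low-count genes Kif9 (0.08 at 24 h, 0.61 to 1.14 CPM over all libraries), Kif6, Kif19a, Kif19b and Kif27. Kif6, Kif19b and Kif27 were not tested at 24 h, and Kif6 and Kif19a not at 4 h, because too few libraries held enough counts.

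In vehicle libraries alone, the transport kinesins showed no common direction between 4 h and 24 h: 2 were higher (Kif3c and Kif13b), 4 were lower (Kif1a, Kif1b, Kif3b and Kif5c) and 9 were not called, with a median of -0.04, beside 54.3% of all genes called (27.4% higher and 27% lower). The call of Kif1b was lost without any 1 of these libraries but the second and the third at 4 h, that of Kif3b without the first 24 h library (edgeR adjusted p = 0.0555), and that of Kif5c without the third 4 h or the second 24 h library (edgeR adjusted p = 0.0533 and 0.0828). Of 12 other kinesins, 5 were higher, including Kif26b by 1.79 ± 0.276 on the log2 scale (edgeR adjusted p = 0.000213), and 4 were lower, including Kif2a, which fell by 0.81 (SE 0.089, edgeR adjusted p = 5.55e-07). The higher calls of Kif24 and Kif6 were lost with DESeq2 (adjusted p = 0.051 and 0.0653) and when any of several single libraries was left out. Kif24 also missed the threshold without the filter (edgeR adjusted p = 0.0546). Kif6 and Kif19a, called higher, and Kif19b, called lower, lay below 1 CPM in every library.

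The proteins that work with kinesins were counted in the same fits, with Cenpe, a mitotic kinesin outside the symbol rule, among the spindle partners. Of 18 spindle and midzone partners of the mitotic motors, 17 fell and none rose at 24 h, with a median of -3.23 on the log2 scale, and 12 fell at 4 h with a median of -0.62. Over all genes, 38% were called lower at 24 h, and 3.71% were called lower and 3.45% higher at 4 h. The largest falls were those of Plk1, the mitotic kinase that docks on several of these motors, which went from 108 CPM in 24 h vehicle to 5.96 in treated libraries (-4.19 ± 0.27, edgeR adjusted p = 0.000126), and of Birc5 (survivin), which went from 53.9 to 3.29 CPM (-4.03 ± 0.17, edgeR adjusted p = 5.79e-08). Of 13 regulators of G2 and M transcription, 8 fell and 5 rose at 24 h, with a median of -0.91, and 2 fell and 1 rose at 4 h. Those with the largest change were E2f8, a repressor of the E2F family (-4.47 ± 0.16, edgeR adjusted p = 5.82e-15), and Mybl2, the B-Myb subunit that joins MuvB (-3.27 ± 0.16, edgeR adjusted p = 5.81e-09). At 4 h E2f8 changed by -0.60 (edgeR adjusted p = 0.0266) and Mybl2 by 0.14 (edgeR adjusted p = 0.493). The 5 MuvB core genes of the list, named after their values were seen, did not share a direction: at 24 h Lin52 rose by 1.59, Lin54 by 0.97, Lin37 by 0.59 and Rbbp4 by 0.46 on the log2 scale, and Lin9 fell by 0.51. In either direction 13 of 13 regulators were called at 24 h, beside 74.7% of all genes.

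The partners on the transport side had list medians nearer 0 and moved in both directions. Of 16 kinesin light chains and adaptors tested, 10 rose and 2 fell at 24 h with a median of 0.20, and 1 of 16 rose at 4 h, beside 3.45% of all genes called higher at that time. Mapk8ip3 (JIP3), a scaffold that links kinesin-1 to its cargo, went from 46 CPM in 24 h vehicle to 129 in treated libraries (1.48 ± 0.05, edgeR adjusted p = 5.54e-15), and Arl8b, the small GTPase through which lysosomes recruit kinesin, went from 146 to 324 CPM (1.14 ± 0.05, edgeR adjusted p = 4.71e-14). Of 20 genes of cytoplasmic dynein and dynactin, the motor that runs the opposite way, 13 rose and 5 fell at 24 h with a median of 0.19. Dync1i1, an intermediate chain best known from neurons, went from 0.515 to 16.1 CPM (4.95 ± 0.19, edgeR adjusted p = 1.37e-14), and Dync1li1, a light intermediate chain, from 116 to 254 CPM (1.13 ± 0.05, edgeR adjusted p = 3.75e-14). In either direction 12 of 16 adaptors and 18 of 20 dynein and dynactin genes were called, beside 74.7% of all genes at 24 h, and 17 of 18 spindle partners were called lower, beside 38% of all genes.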

How the data were processed

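The deposited tables, 1 per time point, held raw read counts per gene, a size-factor-scaled count signal, FPKM, and the authors' own log2 fold changes, p-values and adjusted p-values, per the file headers. The submitters' processing notes name HISAT2 2.0.5, featureCounts 1.5.0-p3, DESeq2 and the build GRCm39, with no role or order. Strandedness of the kit or counting is not given in the sources used here.

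Raw counts were tested with edgeR 4.0.16 (R 4.3.3; limma 3.58.1) after its default filter of low counts and TMM scaling, with robust quasi-likelihood fits. Benjamini-Hochberg adjustment ran over every gene tested, and calls were made at an adjusted p under 0.05. Each SE of a log2 fold change is its absolute value divided by the square root of the test's F statistic. Each response used its own 6 libraries; the interaction and the vehicle contrast used all 12, with 0 counts for a gene absent from 1 table. Printed levels are CPM on TMM sizes over all 12 libraries, per kilobase of the tables' gene length where stated. The fits were also run on simulated counts with independent libraries and few changed genes, a setting unlike the 24 h data, and no result rests on it.

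At 4 h, deviations from the group means correlated between libraries of the same replicate number (0.19, 0.177 and 0.236). The numbers come from the labels, which do not say what same-numbered libraries share. These libraries may therefore be pairs, which was not established. Printed 4 h results are from the fit without pairs. Blocked values are given for the kinesin calls that they change and for the number of all genes called. For the partner, regulator, dynein and marker lists, blocked calls were not tallied.

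Members, role lists and the naming rule were chosen with earlier results of these data known. Values in every library are given for the 4 called members of each role list with the largest 24 h change, the 2 most abundant per length, and 8 genes named whatever their result, some of which the other rules also name. Motifs were matched with Python 3.11.15 in RefSeq promoter windows, never mixed with GRCm39 coordinates. Of the 35 windows, 32 ended in an annotated GENCODE M21 transcript of their gene, a check that a window before an internal exon also passes. Protein sequences were not analysed here. Alternatives were DESeq2 1.42.0, RLE factors, library totals, no filter, a replicate block, all 12 libraries, limma-trend on log2(FPKM + 0.1) and leaving out each library.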

Additional observations from a re-analysis of the deposited data

Results flagged for a closer look

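The results that stand out are the kinesins whose response to MCB-613-10-1 differed between 24 h and 4 h, by the interaction test of edgeR at an adjusted p under 0.05. There were 26 of them among the 40 kinesins, and 53.8% of all genes tested also passed, so the number by itself says little about kinesins. Values are the 24 h log2 fold change minus the 4 h log2 fold change.

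All 13 mitotic kinesins were more negative at 24 h. The difference was -3.85 for Kif15, -3.65 for Kif14, -3.51 for Kif11, -3.37 for Kif18b and -3.14 for Kif2c. It was -3.08 for Kifc1, -3.04 for Kif4, -2.70 for Kif23, -2.48 for Kif20b and -2.32 for Kif22. Kifc5b with -2.30, Kif20a with -1.95 and Kif18a with -1.24 had the smallest differences. Among transport kinesins, the response rose from 4 h to 24 h by 1.74 for Kif5a, 0.98 for Kif1a, 0.82 for Kif1b, 0.39 for Kif3b and 0.36 for Kif5b, and the difference was -0.97 for Kifc3, -0.64 for Kif1c and -0.58 for Kif13a. Among the other kinesins it was 1.32 for Kif2a, 0.86 for Kif21a, -0.75 for Kif26a, -1.78 for Kif24 and -3.86 for Kif26b. With library totals as the only scaling, the difference of Kif5b was 0.22 and missed the threshold (edgeR adjusted p = 0.0738).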

How the results depend on the processing

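The falls of all 13 mitotic kinesins at 24 h held in every alternative run, with a list median from -3.65 to -3.40 when 1 library was left out. The 4 h response was less stable. All genes called at 4 h numbered 1098, against 1953 with the replicate block and 2198 when the 12 libraries were fitted together, and 443 (without the third treated library) to 1760 (without the first vehicle library) when 1 library was left out. Kinesins called at 4 h went from 14 to between 9 (without the second treated library) and 18 (without the first vehicle library), transport kinesins called higher from 3 to between 1 and 4, other kinesins called higher from 2 to between 1 and 2, and other kinesins called lower from 1 to between 0 and 2 in the same settings. Other kinesins called higher at 4 h also came to 1 with library totals and 1 with limma on FPKM. Between the vehicle groups, other kinesins called higher went from 5 to 3 with DESeq2 and to between 3 and 5 when 1 library was left out, and transport kinesins called lower from 4 to between 2 and 4. Leaving out 1 library also changed the sign of values near 0: Kif5b at 4 h lay between -0.07 and 0.06, Kifc1 at 4 h between -0.54 and 0.01, Kif3a at 4 h between -0.02 and 0.07, Kif1c between the vehicle groups between -0.02 and 0.18 and Kif5b there between -0.09 and 0.04. The median of the other kinesins at 24 h ran from -0.65 to 0.18. Kif3a at 4 h was -0.02 with library totals, a scaling that put 34.5% of called genes on the higher side at 4 h against 48.2%, and 39% against 49.1% at 24 h. Among kinesins named or called, the replicate block changed 1 call, that of Kif22 at 4 h (edgeR adjusted p = 0.0213). At 24 h same-numbered libraries correlated at 0.0701, 0.0519 and -0.1, so their numbers are not taken as pairs, and 30 kinesins were called with and without the block. The causes of these shifts were not tested. Genes near or below 1 CPM, such as Kif6, Kif9, Kif17, Kif19a, Kif19b, Kif27 and Kifc2, are too shallow here to show moderate changes.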
